A study of Mus musculus with 14 samples.

Results

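Beta cells and delta cells are the insulin-producing and somatostatin-producing neighbours of the glucagon-producing alpha cell in the pancreatic islet. This account follows 10 genes of those lineages, Ins1, Ins2, Pdx1, Nkx6-1, Mafa, Slc2a2, Pax4, Neurog3, Sst and Hhex. They were read in an alpha-cell line in which binding of NKX2.2 was mapped with and without knockdown of Klf4. A region belonged to one of these genes when that gene was its nearest protein-coding gene, with a distance of 0 for an overlap. Of the 6758 listed regions, 4 met this rule, 1 each for Mafa, Pdx1, Hhex and Nkx6-1. The other 6 genes, Ins1, Ins2, Slc2a2, Pax4, Neurog3 and Sst, had no listed region.

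Chromatin immunoprecipitation with an anti-NKX2.2 antibody followed by sequencing (ChIP-seq) was carried out on alphaTC6 cells labelled as wild type. The alphaTC lines come from a mouse tumour in which SV40 T antigen was driven by the glucagon promoter, so they are transformed alpha cells of a single origin. All cultures were transfected for 48 h with RNAiMax, with a scrambled siRNA in the control groups and a Klf4 siRNA in the knockdown groups. The NKX2.2 ChIP was done on 4 scramble and 3 Klf4-KD samples, and the groups of unprecipitated input chromatin had the same sizes. The values available are 1 comparison of the ChIP groups per region, without a value for any culture, so neither the spread between replicates nor the depth can be shown, and neither the Klf4 level nor the alpha-cell markers can be checked. The comparison's FDR (a p-value adjusted over all regions) is the only statement of whether a difference exceeded the spread. The table does not name the numerator of its log2 fold change. A positive value is therefore called up and a negative value down, as the table lists them, without saying which culture had more NKX2.2.

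NKX2.2 is a homeodomain factor of the NK2 class that is required for beta-cell formation in the mouse and stays expressed in beta and alpha cells. NK2-class factors bind DNA around a core of AAGTG, whereas KLF4, a zinc-finger factor, binds GC-rich and CACCC-type sites. In alpha cells the insulin and somatostatin genes are normally silent, and several beta-cell regulators are kept low or off. The 10 genes fall into hormones (Ins1, Ins2, Sst), a glucose transporter (Slc2a2, which encodes GLUT2), progenitor-stage factors (Neurog3, which starts endocrine differentiation, and Pax4, which favours the beta over the alpha fate), regulators of mature or developing beta cells (Pdx1, Nkx6-1, Mafa) and the delta-cell factor Hhex.

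The gene-start sequences of Pdx1, Ins1 and Sst are shown, the first because a listed region lies upstream of it, and the other 2, chosen afterwards, as hormone genes with no region. They are RefSeq sequences of GRCm38.p6 and run from 250 bases before to 50 bases after the annotated start, in the direction of the gene. Capitals mark AAGTG on either strand, which reads as CACTT where it lies on the opposite strand. The windows are chr5:147269847-147270146 on the plus strand for Pdx1, chr19:52264047-52264346 on the plus strand for Ins1 and chr16:23890795-23891094 on the minus strand for Sst. The Sst window lies wholly inside the gene bounds used for distances (23889573 to 23891342). The start behind its window is therefore not the outer end of those bounds, and positions given for Sst refer to the former.
Pdx1: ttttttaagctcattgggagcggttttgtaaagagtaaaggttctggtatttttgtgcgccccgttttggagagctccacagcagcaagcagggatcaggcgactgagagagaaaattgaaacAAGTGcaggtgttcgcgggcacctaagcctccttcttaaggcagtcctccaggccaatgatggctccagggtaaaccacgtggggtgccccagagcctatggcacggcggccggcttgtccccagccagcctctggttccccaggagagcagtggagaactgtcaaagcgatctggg
Ins1: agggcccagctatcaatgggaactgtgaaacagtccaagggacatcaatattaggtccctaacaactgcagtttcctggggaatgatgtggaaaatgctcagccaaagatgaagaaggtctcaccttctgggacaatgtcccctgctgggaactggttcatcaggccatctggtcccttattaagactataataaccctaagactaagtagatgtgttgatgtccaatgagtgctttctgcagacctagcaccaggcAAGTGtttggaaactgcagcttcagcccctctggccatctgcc
Sst: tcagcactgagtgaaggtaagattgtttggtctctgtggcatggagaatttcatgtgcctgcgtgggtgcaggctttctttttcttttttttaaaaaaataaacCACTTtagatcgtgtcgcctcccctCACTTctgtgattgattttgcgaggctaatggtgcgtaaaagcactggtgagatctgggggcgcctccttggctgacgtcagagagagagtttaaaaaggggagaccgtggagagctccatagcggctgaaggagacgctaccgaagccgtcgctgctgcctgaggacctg

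Each of the 3 windows holds AAGTG. Pdx1 has 1 match, which begins 127 bases before the start. Ins1 also has 1, which begins 7 bases past the start. Sst has 2, beginning 146 and 121 bases before the start on the opposite strand, and the first of them also fits the longer form TNAAGTG, which contains the shorter one. Of the 10 genes, 7 had an entry in the promoter table, and Mafa, Ins2 and Pax4 had none. AAGTG was found in 4 of the 7 (Slc2a2, Pdx1, Sst and Ins1) and in 46.4% of all 32841 promoters of the same length, on both strands. Those 32841 were not limited to protein-coding genes or to 1 promoter per gene, as the 7 were, so the shares given here come from a broader set. TNAAGTG was found in 1 of the 7 and in 11.5% of all promoters. For the KLF-type motifs, CACCC was found in 5 of the 7 (Slc2a2, Pdx1, Neurog3, Sst and Hhex) and in 57.5% of all promoters. GGGNGTGG, which can overlap CACCC read on the opposite strand, was in none of the 7 and in 17.6% of all. The homeodomain core TAAT was found in 3 of the 7 (Slc2a2, Sst and Ins1, with 3 matches in Ins1) and in 58.0% of all. These are matches of letters in a 300-base window, and none of the 4 listed regions lies within any of the 7 windows. Mafa, whose region lay nearest to its gene at 180 bp, has no window to compare.

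None of the 3 hormone genes had a listed region close by. For Ins1 (chromosome 19, 52264297 to 52265015), the nearest region in the authors' deposited table was 820 kb away and assigned to Xpnpep1, and no region lay within 500 kb. The nearest region to Ins2 (chromosome 7, 142678656 to 142679726) was 218 kb away and assigned to Th, the gene of the catecholamine enzyme tyrosine hydroxylase. Sst (chromosome 16, 23889573 to 23891342) was 274 kb from its nearest region, which was assigned to Bcl6. Within 500 kb there were 6 regions at Ins2 and 1 at Sst, where the median over all protein-coding genes was 3. Both insulin genes and Sst had no region within 100 kb. Among all 21887 protein-coding genes of the gene table, 47.1% likewise had none within 100 kb.

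At these distant neighbours the authors' deposited table gave a log2 fold change of 0.12 for the region nearest to Ins1, 0.39 for that nearest to Ins2 and 0.11 for that nearest to Sst. Their FDR values were 1.0, 0.873 and 1.0 in the same order in the deposited table, and none passed the threshold. The region near Th next in distance from Ins2, 225 kb away, had a log2 fold change of 1.01 at an FDR of 0.132 in the authors' deposited table, and did not pass either.

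Slc2a2 and the progenitor-stage factors also had no region, but listed regions lay closer to them. Slc2a2 (chromosome 3, 28697903 to 28728361) was 76.9 kb from its nearest region, which was assigned to Rpl22l1, a ribosomal protein-like gene. Pax4 (chromosome 6, 28442334 to 28449340) was 20.5 kb from a region assigned to Gcc1. That region consisted of 1 window of 10 bp. Neurog3 (chromosome 10, 62133090 to 62134763) was 48.4 kb from a region assigned to Tspan15, a tetraspanin gene. The authors' deposited table listed these 3 neighbouring regions at log2 fold changes of 0.52 (Slc2a2), 0.09 (Pax4) and -0.06 (Neurog3), with FDR values of 0.857, 1.0 and 1.0. Pax4 had the densest surroundings of the 10 genes, with 11 listed regions within 500 kb, whereas Slc2a2 had 1.

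**Figure D1:**
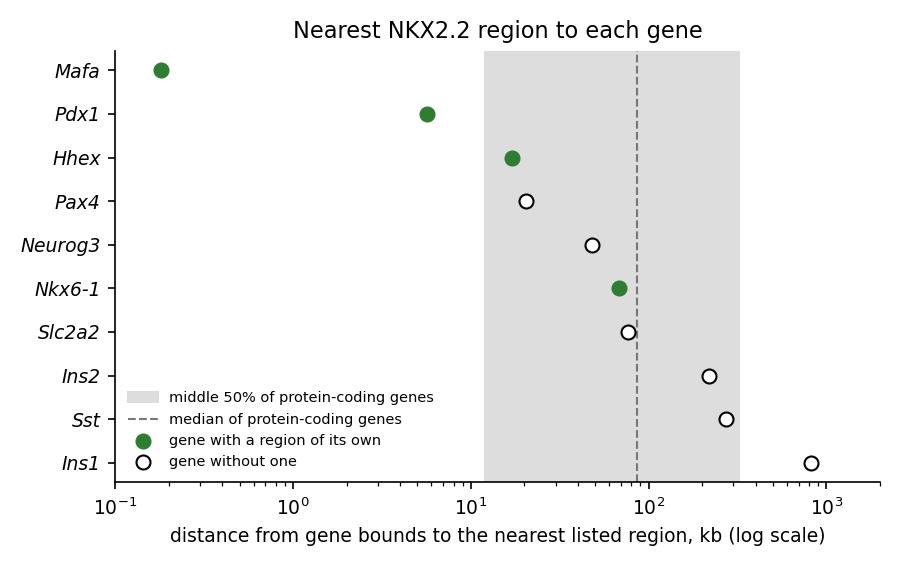
Distance from the bounds of each of the 10 genes to the nearest region of the deposited table, in kb on a log axis; filled points are genes to which a region was assigned, the shaded band is the middle 50% of 21887 protein-coding genes and the dashed line their median. Mafa (0.18 kb) and Pdx1 (5.69 kb) lie below the band and Ins1 (820 kb) above it.

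Measured over all protein-coding genes, the median distance to a listed region was 85.6 kb, with quartiles of 12.0 and 323 kb. The median over the 10 genes was 58.2 kb. The order from nearest to farthest was Mafa, Pdx1, Hhex, Pax4, Neurog3, Nkx6-1, Slc2a2, Ins2, Sst and Ins1, with the 3 hormone genes the farthest. Regions are assigned by nearness, so genes with a region of their own tend to rank near by the rule itself. Nkx6-1 takes its place from a region 68.0 kb away that was assigned to Gm42134, and its own region was 227 kb away. A region lay inside none of the 10 genes, against 13.5% of all genes, and within 10 kb of 2 of the 10, against 23.6% of all. A region of its own belonged to 4 of the 10 genes and to 4542 of all 21887, or 20.8%. With 10 genes these counts are a description only.

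At Mafa, whose product activates insulin transcription in mature beta cells, the region lay on chromosome 15 from 75748501 to 75748510, 180 bp beyond the higher-coordinate end of the gene (75745501 to 75748321). The gene table gives no strand or exons. The next protein-coding gene, Zc3h3, was 5.92 kb away. The region was a single window of 10 bp, the smallest unit of the table. In the authors' deposited table its log2 fold change was 0.73, a ratio of 1.66, listed as up, with a p-value of 0.0262 (FDR 0.335.) It did not pass an FDR of 0.05.

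The Mafa value was large in size without being among the called ones. Its absolute log2 fold change, which does not depend on the numerator, exceeded that of 93.7% of all regions, of 93.4% of the 805 single-window regions and of 95.5% of the 1782 regions within 1 kb of the end of a protein-coding gene. The median signed value of that last class was -0.05, and 41.7% of it was positive. By p-value it ranked 528 of 6758 in the authors' deposited table. Among single-window regions, an absolute log2 fold change as large as that of Mafa was reached by 45 others that were not called and by all 7 that were. The smallest absolute log2 fold change of a called single-window region was 1.14. None of the 251 single-window regions within 1 kb of a gene end was called.

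At Pdx1, which encodes a factor needed both for forming the pancreas and for insulin gene transcription in beta cells, the region lay on chromosome 5 from 147264001 to 147264410. It ended 5.69 kb and began 6.10 kb before the annotated start of the gene (147270097 to 147275848, plus strand). Enhancers of Pdx1 are known in the DNA upstream of its start, but no coordinates of them were used here. The region overlapped the bounds of Plut, a non-coding RNA gene transcribed next to Pdx1, and the next protein-coding gene, Cdx2, was 36.5 kb away. It was 410 bp wide and held 9 windows, more than 96.3% of all regions. In the authors' deposited table the region stood at a log2 fold change of 0.34 (a ratio of 1.27), listed as up, with a p-value of 0.0667 (FDR 0.507.) It did not pass the threshold. None of its 9 windows was counted as up or down, a count that rests on the same p-values and adds no separate result. A region on the other side of Pdx1, 23.9 kb away and assigned to Cdx2, had the opposite sign in the authors' deposited table, at -0.72 with a p-value of 0.0485 (FDR 0.438.)

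At Hhex, a homeodomain factor required for delta-cell differentiation and somatostatin production, the region lay on chromosome 19 from 37457801 to 37458310. It was 17.1 kb beyond the higher-coordinate end of the gene (37434841 to 37440731), which is the downstream side, since the promoter table places Hhex on the plus strand. Its 11 windows over 510 bp made it the widest of the 4 regions, and 98.3% of all regions had fewer windows. The authors' deposited table listed its direction as mixed, meaning that windows of both signs contributed. Its log2 fold change was 0.15 at the representative window and 0.44 at the best window in the deposited table, with a combined p-value of 0.537 and an FDR of 0.972. Neither the combined nor the best-window FDR passed the threshold. When genes of every type were allowed, the nearest was not Hhex but 1700122C19Rik, 6.94 kb away.

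At Nkx6-1, which encodes a factor that maintains beta-cell identity, the assigned region was distal. It lay on chromosome 5 from 101432351 to 101432510, 227 kb below the lower-coordinate end of the gene (101659184 to 101664711), and the next protein-coding gene, Gm42134, was 291 kb from it. The non-coding gene Gm42131 was closer, at 14.0 kb. The authors' deposited table listed the region as down, with 4 windows, a log2 fold change of -0.14, a p-value of 0.856 (FDR 1.0.) A nearer region, 68.0 kb from Nkx6-1 on the other side, was assigned to Gm42134 and had a log2 fold change of 0.19 at an FDR of 0.946 in the deposited table.

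**Figure D2:**
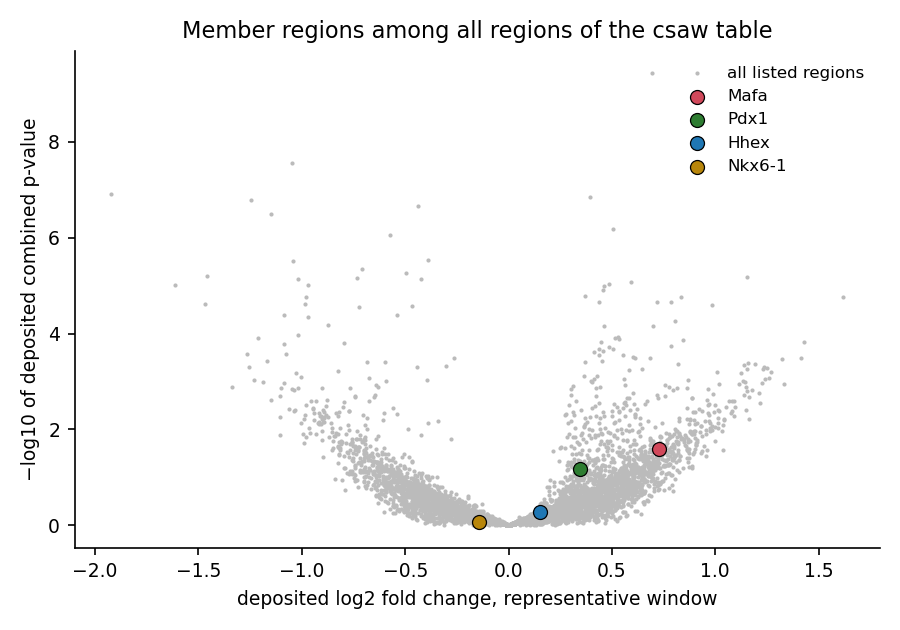
Each point is a region of the deposited table, with its log2 fold change at the representative window on the x axis and −log10 of its combined p-value on the y axis; the coloured points are the 4 regions of Mafa, Pdx1, Hhex and Nkx6-1. Mafa lies highest of the 4, at a log2 fold change of 0.73, and all 4 have larger p-values than any called region and so lie lower on the axis.

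Set beside each other, 0 of the 4 regions passed an FDR of 0.05 in the authors' csaw comparison, against 1.36% of all regions (92 of 6758). The largest p-value among the 92 called regions was 0.00068, and the smallest among the 4 was that of Mafa. Before adjustment, 1 of the 4 (Mafa) had a p-value under 0.05, against 11.2% of all regions. The single window at Mafa was counted as up by the table, which for 1 window only restates its p-value and sign. At least 1 window was counted as up in 7.55% of all regions. None of the 4 had a window counted as down, against 3.71% of all. These window counts rest on the same p-values and are no separate result. With the best-window FDR of the deposited table the count was also 0, against 1.2% of all, and at combined FDR limits of 0.01 and 0.1 it was 0 against 0.592% and 2.31%. Since so few regions were called at all, a count of 0 among 4 is near what the share over all regions gives and is no result about these genes. The share called was higher, 13.2% (33 regions), among the 250 regions of 9 or more windows. The regions of Pdx1 and Hhex belong to that class, in which 28% had an unadjusted p-value under 0.05. With the depth unknown, the size of difference that would have been detectable is unknown as well. The median log2 fold change was 0.25 over the 4 regions, which ranged from -0.14 to 0.73, and 0.04 over all regions, which ranged from -1.92 to 1.62. Positive values were listed for 3 of the 4 and for 56.8% of all.

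The surroundings of the 4 genes carried values of both signs. Within 500 kb of Mafa there were 9 regions, 5 of them positive, with log2 fold changes in the authors' deposited table from -0.57 to 0.73, and the region beside Mafa was the highest. Within the same distance of Pdx1 there were 5, from -0.72 to 0.56, and 3 were positive. Hhex had 6, from -0.43 to 0.35, and 4 were positive. Nkx6-1 had 3, from -0.14 to 0.54, and 2 were positive. None of these regions was called, against 1.36% of all regions, and the smallest FDR in each neighbourhood was 0.335 (Mafa), 0.438 (Pdx1), 0.580 (Hhex) and 0.311 (Nkx6-1).

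**Figure D3:**
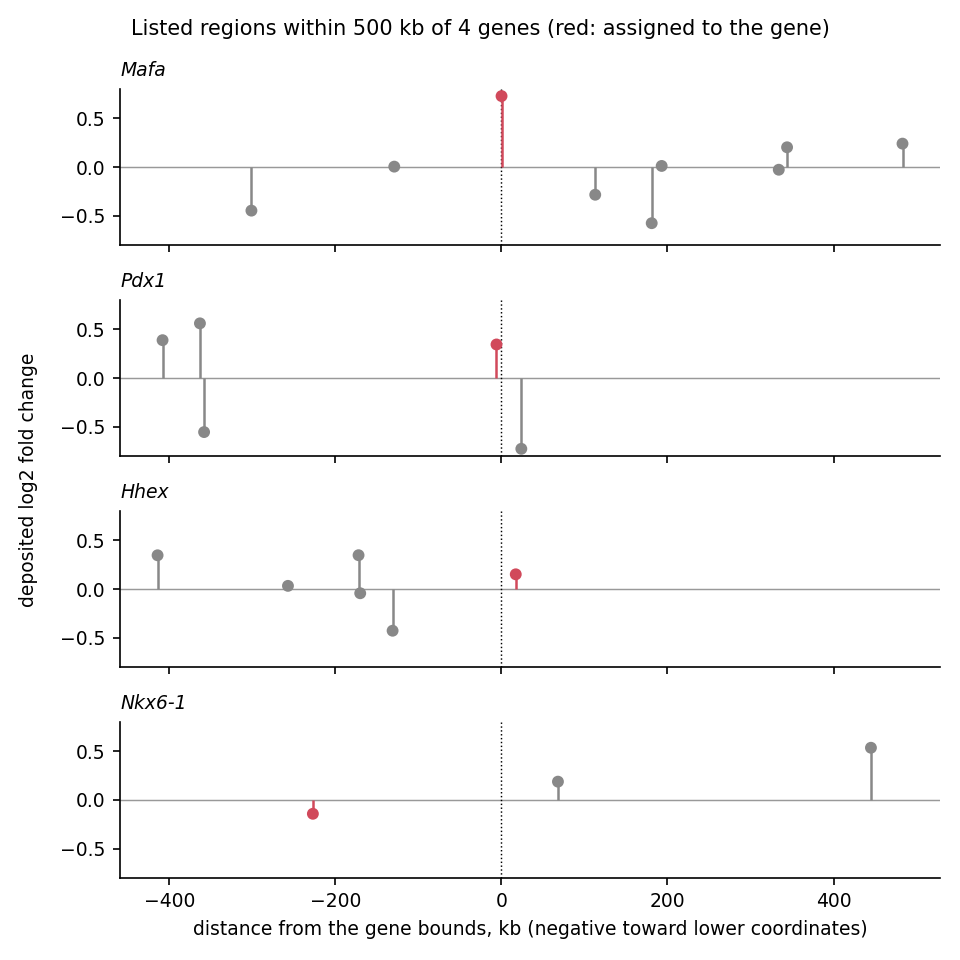
Listed regions within 500 kb of Mafa, Pdx1, Hhex and Nkx6-1, with distance from the gene bounds in kb on the x axis (negative toward lower coordinates) and the deposited log2 fold change on the y axis; red marks the region assigned to the gene. At Mafa the red region is the highest of 9, at 0.73, and at Pdx1 the red region (0.34) has a neighbour of the opposite sign (-0.72).

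Other islet genes were read in 3 lists. The first held 16 genes of beta-cell function, of which 7 had a listed region, 14 regions in all. One of the 14 was called, against 1.36% of all regions. Only this region of the 14 had an unadjusted p-value under 0.05 in the authors' csaw comparison, against 11.2% of all. A count of 1 is no result about the list. The called region was nearest to Rgs4, a regulator of G-protein signalling, and lay 71.9 kb outside the gene on chromosome 1 from 169819501 to 169819810. The authors' deposited table listed it as up, with a log2 fold change of 0.53, a p-value of 0.000132 (FDR 0.0185) over 7 windows. A second region, 0.059 kb from Rgs4, had a log2 fold change of 0.03 (FDR 1.0) in the deposited table. The called region was thus the distal one of the pair.

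The genes of the beta-cell K-ATP channel, which couples glucose metabolism to insulin secretion, both had regions inside their bounds. Abcc8, which encodes its sulfonylurea receptor subunit SUR1, had 3 regions, and the one with the smallest p-value had a log2 fold change of 0.57 at an FDR of 0.652 in the authors' deposited table. Kcnj11, which encodes the pore, had 1 region at -0.06 and an FDR of 1.0 in the deposited table. Trpm5, a cation channel gene, had 1 region inside its bounds at -0.51 and an FDR of 0.796 in the authors' deposited table. Slc30a8, the granule zinc transporter, had the most regions of the list, 5, with log2 fold changes from -0.29 to 0.35 in the deposited table. The one with the smallest p-value, at -0.29, lay inside its bounds, and the others lay outside, up to 123 kb away. The value of 0.35 belonged to a region 79.4 kb away. The genes with no region nearest to them included Iapp, G6pc2, Glp1r, Ucn3, Gipr, Nnat, Sytl4 and Ffar1. The median log2 fold change of the 14 regions was 0.03, and 9 were positive.

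The second list held 19 transcription factors of islet and endocrine development, of which 7 had regions, 20 in all. None was called, against 1.36% of all regions, and 2 had an unadjusted p-value under 0.05, 1 in each direction, against 11.2% of all. Both counts are close to the background. These were a region 187 kb from Isl1 with a log2 fold change of 0.76 (FDR 0.289), and a region 67.8 kb from Foxa2 at -0.61 and an FDR of 0.365, both in the authors' deposited table. A region 266 kb from Gata6 came next by p-value, at -0.58 and an FDR of 0.591 in the deposited table. Nkx6-2, the closest paralog of Nkx6-1, and Neurod1, a target of Neurog3, had no listed region. The median of the 20 regions was 0.02, and 12 were positive.

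The third list held 10 genes of delta, PP and epsilon cells, of which 3 had regions, 4 in all. None was called and none had an unadjusted p-value under 0.05 in the authors' csaw comparison, against 1.36% and 11.2% of all regions, so a count of 0 among 4 is no result about the list. Sstr3, a somatostatin receptor gene, had a region inside its bounds at -0.42 and an FDR of 0.948 in the deposited table. Casr, the calcium-sensing receptor gene, had 1 inside its bounds at 0.04 and an FDR of 1.0 in the deposited table. The hormone genes Ppy, Pyy and Ghrl had no listed region, as was the case for Sst and both insulin genes.

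**Figure D4:**
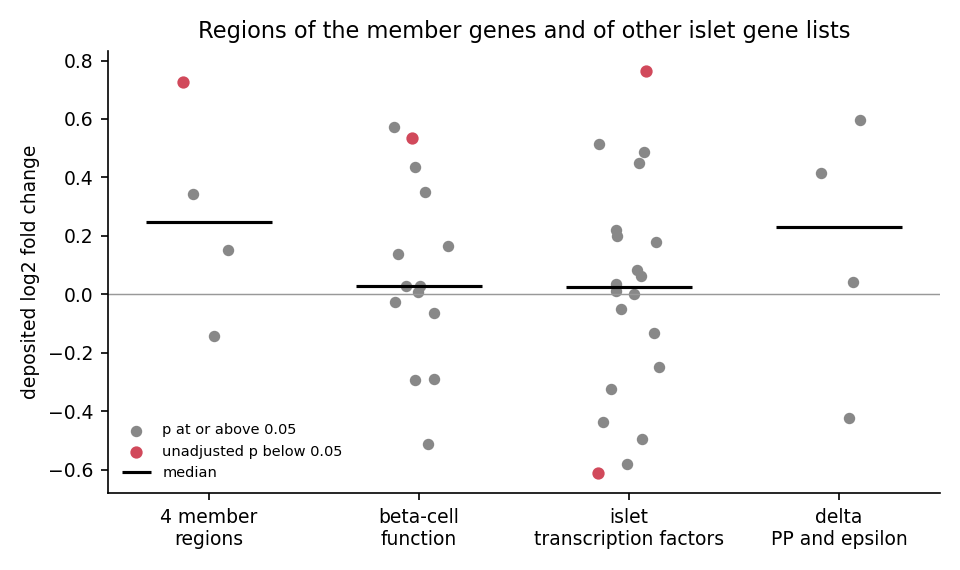
Deposited log2 fold change of each region (points, spread sideways for legibility) for the 4 regions of the member genes and for 3 lists of other islet genes, with the median of each as a line; red points have an unadjusted p-value under 0.05. The medians are 0.25, 0.03, 0.02 and 0.23, each list spans 0, and the red point of the beta-cell list is the called region near Rgs4.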

How the data were processed

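NKX2.2 ChIP-seq and input samples were grouped by their titles. Per the submitters' processing notes the reads were processed with Bowtie2 and MACS2 on mm10, and the series' design text names csaw for the comparison. The authors' deposited table holds 1 row per region, with log2 fold changes whose normalization and numerator are not stated, and p-values with their FDR, which equals a Benjamini-Hochberg adjustment over all 6758 regions. It holds no counts, so depth is unknown, the window filter and use of input are not given in the sources used here, and no test was refitted. Replicates are biological per the series' design text.

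For each region the nearest gene was taken from the 21887 protein-coding genes of the RefSeq table of GRCm38.p6 (the build of mm10), with ties going to the closer gene end; 6726 regions could be assigned. Regions were called at an FDR of 0.05. The genes, lists and rules were chosen with earlier results of these data known. Named were all 10 genes, their regions and nearest neighbours, and of each list the 3 genes with the smallest p-value and any with a called region, some of which are not reported here; other named list genes, such as Kcnj11 and Slc30a8, were chosen after their values were seen. Likeness of pattern across samples cannot be given without values per sample. Motifs were searched on both strands of RefSeq promoters. The functions were tested on simulated data. Python 3.11.15, numpy 2.4.6, pandas 2.3.3 and matplotlib 3.10.9 were used.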

Additional observations from a re-analysis of the deposited data

How the results depend on the processing

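No paired analysis was possible because no column holds a value for a sample. For the same reason leaving out replicates, other normalizations, DESeq2 and a low-count filter were not run. The count of called regions was 0 under each of the 6 alternatives run (an FDR of 0.01 or 0.1, the best window, regions of 2 or more windows, regions under 1 kb, and a 10 kb limit), of which those on windows and on distance leave 3 and 2 of the 4 regions, and the shares called over all regions are too low for such counts to show stability. The number of regions, 4, depended on the assignment. It was 1 (Mafa) when genes of every type competed, 2 with a 10 kb limit (Mafa and Pdx1), 3 with a 100 kb limit and 3 by the nearest gene start in the promoter table, which has no entry for Mafa. Apart from the last, the alternatives below reuse the same 4 regions, 3 of them positive, so the sign of their medians shows no stability. The median log2 fold change of 0.25 moved with the set. It was 0.39 at best windows, 0.54 within 10 kb, 0.15 for regions of 2 or more windows, 0.73 with genes of every type (1 region), and 0.17 over the region nearest to each of the 10 genes, an alternative chosen after seeing the data. Without the Mafa region the median was therefore 0.15, since it is the only single-window region of the 4. The unknown depth limits each statement that a region did not pass.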
